A study of Mus musculus with 48 samples.

Results

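The leukocyte adhesion molecules of endothelium are the surface and stored proteins with which the vessel wall holds blood cells, and 10 of their genes were followed here through 4 cell populations of the mouse: Vcam1, Icam1, Icam2, Sele, Selp, Madcam1, Cd34, Mcam, Alcam and Vwf. They were chosen by name and matched by symbol to 10 of the 54752 gene rows of the deposited matrix. RNA-seq had been performed on lymphatic endothelial cells (LEC) of the heart and of the diaphragm, on blood endothelial cells (BEC) of the heart and on cardiomyocytes, to ask how these cells differ and how they respond to angiotensin II, a vasopressor peptide that was used to induce cardiac dysfunction, and to VEGFCc156s, a form of the lymphatic growth factor VEGF-C that was infused as lymphangiogenic therapy. Each population had 12 libraries, of which 4 came from ctrl mice, 5 from mice given angiotensin II (angII) and 3 from mice given both agents (angII+VEGFC), and the labels tied the 48 libraries to 13 numbered mice.

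All groups were male Prox1-eGFP mice, of strain C57BL/6 in the labels and made in C57BL/6J embryos according to the methods, which carry eGFP behind an internal ribosome entry site at the endogenous Prox1 locus, so that the reporter follows the transcription factor Prox1. The ctrl and angII mice received bovine serum albumin from the minipump in place of VEGFCc156s, and cells were isolated 5 to 6 weeks after the pump had been implanted. Ages in the labels ran from 8 to 16 months, whereas the methods give the age of the reporter mice in weeks. Endothelial cells were sorted as live, CD45.2- and CD31+ cells, with eGFP+ cells taken as LEC and eGFP- cells as BEC, and cardiomyocytes were the pellet of a low-speed spin of the same heart digest. Sequencing was done in 2 sets for the endothelial libraries and in a further set for the cardiomyocyte libraries, so that sequencing set and population cannot be told apart where cardiomyocytes are compared.

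Leukocytes leave the blood in steps. Selectins on the endothelium catch and roll them by binding sialylated sugars, the integrins of the leukocyte then bind members of the immunoglobulin superfamily such as ICAM-1 and VCAM-1 and stop the cell, and junctional adhesion molecules help it through the wall. E-selectin, VCAM-1 and ICAM-1 are known to be induced by inflammatory signals through the transcription factor NF-kB, whereas P-selectin and von Willebrand factor are also stored in Weibel-Palade bodies and released on demand. In lymphatic vessels the same ligands serve cells that enter the vessel from the tissue, in the opposite direction.

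The promoters of Icam1, Sele and Selp are shown because the values of these 3 genes are followed mouse by mouse at the end. Of the 10 genes, 7 had an entry in the RefSeq promoter table of GRCm38.p6. Each sequence below is the 250 bases before the RefSeq start of the gene, read on the plus strand, on which all 3 genes lie. Capitals mark every match to GGNNNTTCC, a loose form of the NF-kB site that was searched on both strands.

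Icam1, chr9:21015690-21015939: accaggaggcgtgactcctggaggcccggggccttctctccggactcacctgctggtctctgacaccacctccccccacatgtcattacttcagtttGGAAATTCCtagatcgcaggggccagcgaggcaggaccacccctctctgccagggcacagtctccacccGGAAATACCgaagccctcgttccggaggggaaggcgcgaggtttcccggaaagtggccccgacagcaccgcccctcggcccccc

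Sele, chr1:164047984-164048233: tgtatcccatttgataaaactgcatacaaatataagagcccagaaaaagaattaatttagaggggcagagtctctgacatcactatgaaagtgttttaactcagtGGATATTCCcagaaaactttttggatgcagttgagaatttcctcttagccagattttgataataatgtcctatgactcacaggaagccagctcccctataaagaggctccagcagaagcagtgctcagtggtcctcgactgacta

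Selp, chr1:164115014-164115263: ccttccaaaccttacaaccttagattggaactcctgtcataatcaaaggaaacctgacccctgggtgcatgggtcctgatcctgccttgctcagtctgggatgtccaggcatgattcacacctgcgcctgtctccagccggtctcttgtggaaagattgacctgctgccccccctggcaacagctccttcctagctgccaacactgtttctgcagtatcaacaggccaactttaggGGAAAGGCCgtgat

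The matches began 153 and 84 bases before the start of Icam1, 145 bases before that of Sele and 14 bases before that of Selp. The first Icam1 match fitted the loose pattern on both strands at the same bases and is counted once. The window of Madcam1 held 2 matches, and those of Cd34, Mcam and Alcam held none. Among all 32851 windows of the table, each from 250 bases before to 50 bases after a start, 18.5% held at least 1 match. A match is a run of letters and says nothing of binding in these cells.

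In the GRCm38 annotation, the selectin genes Sele (ENSMUSG00000026582, chr1:164048234-164057677) and Selp (ENSMUSG00000026580, chr1:164115264-164150026) lie close together on the plus strand of chromosome 1, where Cd34 (ENSMUSG00000016494, chr1:194938819-194961279) also lies. Vcam1 (ENSMUSG00000027962, chr3:116109949-116129688), Icam2 (ENSMUSG00000001029, chr11:106377656-106388075) and Alcam (ENSMUSG00000022636, chr16:52248996-52454074) are on minus strands. Icam1 (ENSMUSG00000037405, chr9:21015985-21028817) and Mcam (ENSMUSG00000032135, chr9:44134469-44142727) share chromosome 9 on the plus strand. Madcam1 (ENSMUSG00000020310, chr10:79664559-79668537) and Vwf (ENSMUSG00000001930, chr6:125546774-125686679) are on plus strands as well. The values below are sums over the whole gene and do not separate exons or isoforms.

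Expression was given as TPM, the abundance of a gene's transcripts after division by their length and scaling of every library to the same total, so that levels of different genes can be set side by side. The libraries summed to 997657 to 999929 TPM, and 12924 to 25896 genes per library reached 1 TPM. TPM keeps no read count, so the depth behind each value is unknown. No pair of libraries was identical. Prox1 had a mean of 172 TPM ± 36.6 (SD, n = 12) in heart LEC and 234 ± 36.6 in diaphragm LEC. In heart BEC it was at 3.49 ± 1.60 and in cardiomyocytes at 3.25 ± 1.76. LEC and BEC were sorted on the reporter of Prox1, so their difference in this gene follows from the gate and is no separate check of identity. The cardiomyocyte fraction was no pure one, since the endothelial marker Pecam1 stood at 138 TPM ± 21.7 there against 796 ± 97.4 in heart BEC, and the macrophage genes Lyz2 and Adgre1 at 621 ± 250 and 15.5 ± 6.81 against 28.7 ± 12.6 and 0.292 ± 0.238. In these bulk samples, fewer cells of a type and less RNA per cell cannot be told apart.

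Heart BEC had the highest mean of 7 of the 10 adhesion genes. Their order by mean level was Cd34 (848 TPM), Icam2 (716), Icam1 (604), Vcam1 (273), Mcam (204), Vwf (193), Sele (104), Selp (74.3), Alcam (3.22) and Madcam1 (0.168). In heart LEC the leading genes were Icam2 (510 TPM) and Icam1 (393), followed by Cd34 (194), and in diaphragm LEC Icam1 led (669), followed by Icam2 (333). Alcam and Madcam1 were the lowest in every population. Of the 10 genes, 9 were at 1 TPM or more in all 48 libraries.

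**Figure D1:**
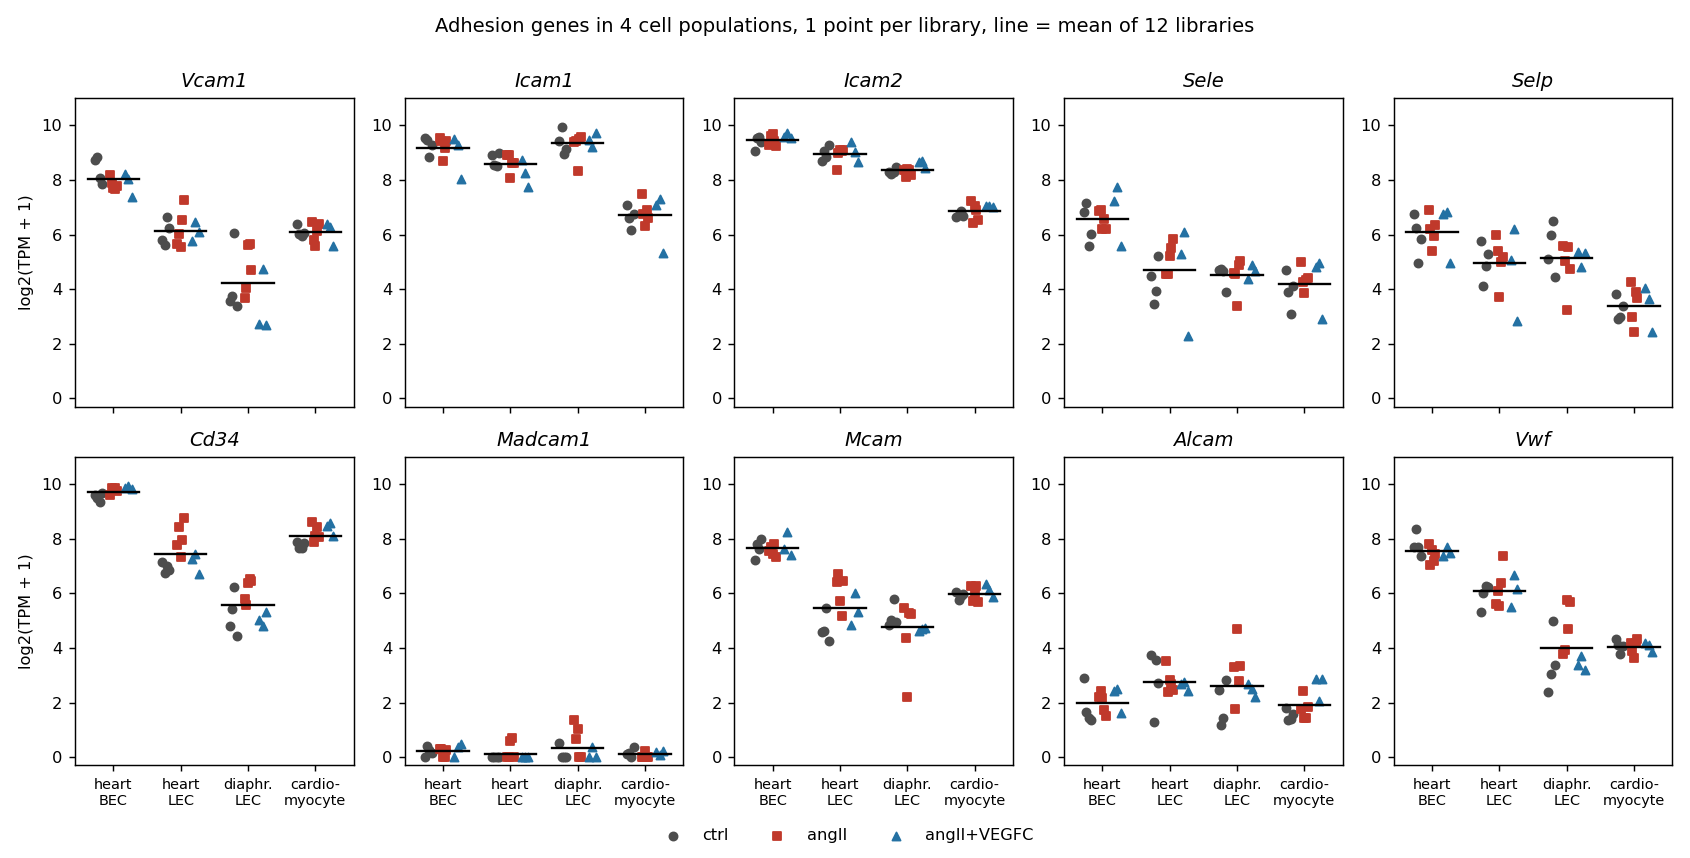
Each panel is 1 gene, each point 1 library (12 per population, n = 48 in all) on the scale log2(TPM + 1), coloured by treatment, and the line is the mean of the population. The mean of heart BEC lay above those of both LEC populations for Cd34, Mcam, Vcam1 and Vwf, the Icam1 points of diaphragm LEC overlapped those of heart BEC, and Madcam1 lay near 0 throughout.

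Madcam1, the vascular ligand of the gut-homing integrin alpha4beta7, was the exception, with a level near 0. It was listed at 0 TPM in 10 of 12 heart LEC libraries, 7 of 12 diaphragm LEC libraries, 4 of 12 heart BEC libraries and 5 of 12 cardiomyocyte libraries. Its highest value was 1.57 TPM, in diaphragm LEC. It was not tested, because a test was run only on genes that reached 1 TPM in 3 or more of the libraries compared. The statements below are therefore about the 9 other genes.

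The 3 endothelial populations were compared in 1 limma model of log2(TPM + 1) over their 36 libraries, with age and sequencing set as covariates, and each difference was averaged over the 3 treatments. Log2 fold changes are on this scale, which understates changes of genes near 0, their standard error (SE) is given beside them, and a gene was called at a Benjamini-Hochberg adjusted p under 0.05 over all genes tested. The labels give each library of a group as a separate mouse.

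Heart LEC had lower levels than heart BEC of 8 of the 9 genes tested and a higher level of none. The 8 were the immunoglobulin-family ligands Vcam1, Icam1 and Icam2, both selectins, Cd34, Mcam and Vwf, and each of them was lower in the LEC library than in the BEC library of the same heart in 12 of 12 mice. Among all 32754 genes tested, 8.64% were lower and 8.94% were higher in heart LEC. The median log2 difference was -1.48 over the 9 genes and 0.15 over all genes.

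Among the ligands of leukocyte integrins, Vcam1, which binds alpha4beta1, had the largest gap. Its level in heart LEC was 55.6, 48.6, 98.8 and 74.4 TPM in the ctrl mice, 49.9, 63.5, 46.2, 91.8 and 152 in the angII mice and 53.6, 86.5 and 66.7 in the angII+VEGFC mice. In heart BEC it was 422, 458, 271 and 230 TPM in ctrl, 291, 236, 211, 204 and 219 in angII and 299, 262 and 168 in angII+VEGFC. No heart LEC library reached the lowest heart BEC library. The difference of heart LEC from heart BEC was -1.91 (SE 0.27, limma adjusted p = 1.49e-06). Icam1 and Icam2, which both bind the integrin LFA-1, differed by less. Icam1 had a median of 393 TPM in heart LEC (216 to 513) and of 655 in heart BEC (260 to 753), a difference of -0.61 (SE 0.16, limma adjusted p = 0.00704). Icam2 had a median of 533 TPM (326 to 679) against 744 (540 to 844), a difference of -0.51 (SE 0.09, limma adjusted p = 4.23e-05). For both, the ranges of the populations overlapped although every mouse had the lower value in LEC.

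Of the selectins, Sele encodes E-selectin, which inflamed endothelium synthesizes, and Selp encodes P-selectin, which endothelium and platelets store. Sele was at a median of 29.6 TPM in heart LEC (3.86 to 67.3) and of 104 in heart BEC (47.3 to 216), with a difference of -1.95 (SE 0.31, limma adjusted p = 1.12e-05). Selp was at a median of 33.9 TPM (6.08 to 73.2) against 74.4 (30.1 to 118), with a difference of -1.17 (SE 0.34, limma adjusted p = 0.0140). The lowest heart LEC value of both selectins came from the same library, that of mouse 8 of the angII+VEGFC group. Without it the difference of Selp was -0.85 (limma adjusted p = 0.0680) and was no longer called. The platelet markers Pf4, Ppbp, Itga2b, Gp9 and Gp1bb moved alongside, with 4 of 5 lower in heart LEC and sums of 4.17 to 58.9 TPM against 37.6 to 169 in heart BEC. Their part in the Selp and Vwf differences was not tested.

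Cd34, a sialomucin that can present sugars to L-selectin, separated the populations most. It was at 142, 106, 128 and 115 TPM in ctrl heart LEC, 216, 346, 161, 247 and 438 in angII and 154, 172 and 104 in angII+VEGFC. Heart BEC stood between 648 and 981 TPM, above every heart LEC library. The difference was -2.35 (SE 0.16, limma adjusted p = 1.57e-13).

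Mcam, a homophilic adhesion molecule of endothelium and mural cells, and Vwf, the carrier of factor VIII and a tether for platelets, followed the same pattern. Mcam had a median of 41.0 TPM in heart LEC (17.9 to 103) and of 196 in heart BEC (149 to 306), with no overlap and a difference of -2.27 (SE 0.26, limma adjusted p = 1.72e-08). Vwf had a median of 69.1 TPM (39.0 to 165) against 183 (131 to 331), with a difference of -1.48 (SE 0.25, limma adjusted p = 2.48e-05). Of 6 markers of mural cells, 3 (Myh11, Rgs5 and Cspg4) were called lower in heart LEC by the same test, beside 8.64% of all genes. The 6 markers summed to 16.9 to 771 TPM in heart LEC and to 122 to 377 in heart BEC, so the sums overlapped. Their part in the Mcam difference was not tested.

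Alcam, the ligand of CD6 on T cells, was the gene that did not follow. Its level in heart LEC was 12.4, 1.45, 10.8 and 5.62 TPM in ctrl, 10.4, 4.27, 6.09, 5.45 and 4.44 in angII and 5.39, 5.76 and 4.42 in angII+VEGFC, and heart BEC ranged from 1.59 to 6.39 TPM. The heart LEC library had the higher value in 10 of 12 mice. The difference of 0.73 (SE 0.27, 95% interval 0.18 to 1.29) missed the threshold, with limma adjusted p = 0.0587. It passed when the mouse entered the model as a replicate block, with limma adjusted p = 0.0223 for a fixed term and 0.0371 for a random effect.

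**Figure D2:**
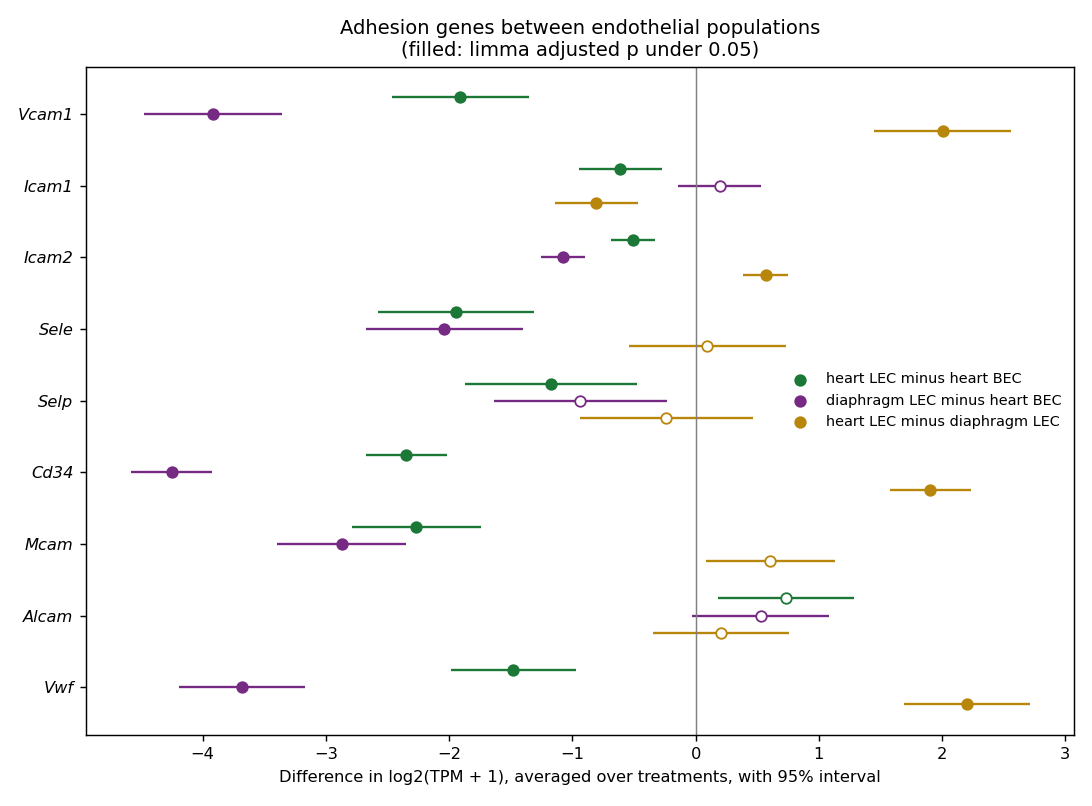
Log2 differences of the 9 genes tested between endothelial populations, with 95% intervals from limma on log2(TPM + 1), filled where the adjusted p was under 0.05. Against heart BEC, diaphragm LEC had the larger deficit of Cd34 (-4.25), Vcam1 (-3.91) and Vwf (-3.68), while its Icam1 interval included 0.

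Diaphragm LEC showed lower levels than heart BEC of 6 of the 9 genes and a higher level of none. The 6 were Cd34, Vcam1, Vwf, Mcam, Sele and Icam2, each lower in 11 of the 11 mice that gave both libraries. Over all genes, 9.01% were lower and 7.54% were higher. The median log2 difference was -2.04 over the 9 genes and 0.03 over all genes. These cells came from another tissue than the BEC, so organ and vessel type cannot be told apart in this comparison.

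Cd34 in diaphragm LEC was 26.9, 41.7, 74.2 and 20.7 TPM in ctrl, 54.1, 46.1, 82.4, 90.4 and 86.7 in angII and 31.2, 27.2 and 38.7 in angII+VEGFC, all below the lowest heart LEC library at 104 TPM. The difference from heart BEC was -4.25 (SE 0.16, limma adjusted p = 1.15e-20). Vcam1 had a median of 13.9 TPM (5.53 to 65.3) and differed by -3.91 (SE 0.27, limma adjusted p = 1.12e-13). Vwf and Vcam1 thus shared very low levels in this population. Vwf had a median of 12.3 TPM (4.19 to 53.0) and differed by -3.68 (SE 0.25, limma adjusted p = 5.58e-14). Mcam had a median of 28.9 TPM (3.59 to 53.9) and differed by -2.87 (SE 0.26, limma adjusted p = 5.49e-11). Sele, the inducible selectin, was spread little, at 9.55 to 31.4 TPM with a median of 24.4. It differed by -2.04 (SE 0.31, limma adjusted p = 4.04e-06), and Icam2 by -1.07 (SE 0.09, limma adjusted p = 7.28e-12).

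Icam1 was different from its neighbours. In diaphragm LEC it stood at 687, 988, 491 and 557 TPM in ctrl, 668, 692, 325, 724 and 770 in angII and 708, 588 and 836 in angII+VEGFC, and it was the highest of the 10 genes there. The difference from heart BEC was 0.19 (95% interval -0.14 to 0.53, limma adjusted p = 0.614), and the diaphragm library was the higher one in 6 of 11 mice. Selp, at a median of 36.3 TPM (8.50 to 89.1), differed from heart BEC by -0.94 (SE 0.34, limma adjusted p = 0.0618) and was lower in 9 of 11 mice. When the mouse entered as a replicate block, the Selp difference was -0.88 as a fixed term (limma adjusted p = 0.0248) and -0.94 as a random effect (limma adjusted p = 0.0384), and it passed in both. Alcam differed by 0.53 (95% interval -0.03 to 1.08, limma adjusted p = 0.251), with a single library, that of mouse 4 of the angII group, at 24.6 TPM and the 11 others at 1.28 to 9.25.

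The 2 LEC populations were not alike. Of the 9 genes, 4 were higher in heart LEC (Vwf, Vcam1, Cd34 and Icam2) and 1 was lower (Icam1), where 2.67% of all genes were higher and 1.88% lower. The median log2 difference was 0.57 over the 9 genes and 0.10 over all genes. Vwf differed by 2.20 (SE 0.25, limma adjusted p = 1.32e-07), Vcam1 by 2.01 (SE 0.27, limma adjusted p = 4.25e-06) and Cd34 by 1.90 (SE 0.16, limma adjusted p = 2.89e-10), each in 11 of 11 mice. Icam2 differed by 0.57 (SE 0.09, limma adjusted p = 4.30e-05), in 10 of 11 mice.

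Icam1 ran the other way, with a difference of -0.80 (SE 0.16, limma adjusted p = 0.00160) and a lower level in heart LEC in 11 of 11 mice. The difference of Mcam was 0.61 (95% interval 0.08 to 1.13, limma adjusted p = 0.206), that of Selp was -0.24 (-0.94 to 0.46) and that of Sele was 0.09 (-0.54 to 0.73), and none of these was called. Blood endothelial markers were not evenly spread over the LEC either: of Nos3, Flt1, Kdr, Cd36, Ly6c1 and Gpihbp1, 4 were higher and 2 lower in heart LEC than in diaphragm LEC, for example Ly6c1 by 2.65 (SE 0.32, limma adjusted p = 3.47e-07). Cardiomyocyte markers were higher in heart LEC for 4 of 5, with sums of 106 to 809 TPM against 2.54 to 310. The part of either in the differences of the adhesion genes was not tested.

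Set in order, heart BEC had the highest mean of Vcam1, Cd34 and Mcam with no overlap with the next population, and also of Icam2, Sele, Selp and Vwf with overlap. For Icam1 the order was diaphragm LEC, heart BEC, heart LEC and cardiomyocytes, with the ranges of the first 3 overlapping in turn. Vcam1 in heart LEC (73.9 TPM ± 30.2, SD, n = 12) was not separated from cardiomyocytes (68.5 ± 14.3), nor was Vwf in diaphragm LEC (19.7 ± 16.8) from cardiomyocytes (15.8 ± 2.42).

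Against cardiomyocytes, heart BEC had higher levels of 8 of the 9 genes, in 12 of 12 mice, where 64.1% of all 23213 genes tested were higher and 10.8% lower. Sequencing set and population cannot be told apart here. The median log2 difference was 2.42 over the 9 genes and 0.61 over all genes. The largest was that of Vwf, at 193 TPM ± 51.1 in heart BEC and 15.8 ± 2.42 in cardiomyocytes, a difference of 3.52 (SE 0.10). The smallest of the 8 was that of Cd34, at 1.60 (SE 0.09), whose level in the cardiomyocyte fraction was 283 TPM ± 69.0. Alcam differed by 0.04 (95% interval -0.35 to 0.43, limma adjusted p = 0.858). With quantile normalization its difference was -0.48 (limma adjusted p = 0.0221), and with the count of genes that reached 1 TPM as a covariate it was -0.58 (limma adjusted p = 0.0138). The fraction also held endothelial transcripts, with Pecam1 at the level given above, and the part of these in the adhesion genes was not tested.

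Other genes of endothelial adhesion and transmigration were split. Of 25 listed genes tested, 7 were higher and 13 lower in heart LEC than in heart BEC, and 7 were higher and 13 lower in diaphragm LEC, with median log2 differences of -0.72 and -0.82 where those of all genes were 0.15 and 0.03. Of all genes, 8.94% were higher and 8.64% lower in heart LEC, and 7.54% and 9.01% in diaphragm LEC. The higher ones of the list were L1cam, Thy1, Stab2, F11r, Stab1, Cd47 and Nectin2 in both. Thy1, a ligand of Mac-1 that marks lymphatic endothelium, was at 73.2 TPM ± 21.5 in heart LEC and 125 ± 29.2 in diaphragm LEC against 3.65 ± 2.33 in heart BEC, and was higher by 4.13 (SE 0.25, limma adjusted p = 4.82e-15) and 4.92 (SE 0.25, limma adjusted p = 2.41e-17). Jam2, a junctional adhesion molecule, was at 581 TPM ± 92.0 in heart BEC and was lower in heart LEC (-3.34, SE 0.30, limma adjusted p = 7.84e-11) and in diaphragm LEC (-5.66, SE 0.30, limma adjusted p = 7.99e-17). Jam2 also differed between the LEC, by 2.32 in favour of the heart (SE 0.30, limma adjusted p = 1.48e-06). Of the 25, 6 were higher and 4 lower in heart LEC than in diaphragm LEC, beside 2.67% and 1.88% of all genes. Against cardiomyocytes, 18 of 24 were higher in heart BEC, beside 64.1% of all genes.

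Vwf and Selp share their storage granule with other cargo, and that cargo was of mixed direction. Of 8 listed genes of Weibel-Palade body cargo and release, 2 were higher and 2 lower in each LEC population than in heart BEC. Of all genes, 8.94% were higher and 8.64% lower in heart LEC, and 7.54% and 9.01% in diaphragm LEC. Angpt2, a ligand of the receptor Tie2, was higher in heart LEC by 2.55 (SE 0.14, limma adjusted p = 1.99e-16) and in diaphragm LEC by 3.15 (SE 0.14, limma adjusted p = 3.72e-19). Cd63, a tetraspanin of the granule membrane, was higher by 2.27 (SE 0.17, limma adjusted p = 7.66e-13) and 2.42 (SE 0.17, limma adjusted p = 8.25e-14). Their direction was thus opposite to that of Vwf. Edn1, which encodes the precursor of endothelin-1, and Myrip, which encodes a linker of the granule to actin, were lower in both LEC populations, Edn1 by a log2 difference of -2.42 in diaphragm LEC (SE 0.26, limma adjusted p = 3.73e-09) and Myrip by -1.10 in heart LEC (SE 0.33, limma adjusted p = 0.0176).

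The NF-kB list held 13 genes of the pathway and its receptors. In heart LEC 1 was higher (Nfkbie) and 7 were lower than in heart BEC, where 8.94% of all genes were higher and 8.64% lower. In diaphragm LEC 3 were higher (Nfkbie, Tnfaip3 and Nfkbia, all inhibitors of the pathway) and 5 lower, where 7.54% of all genes were higher and 9.01% lower. The receptors Il1r1 (-2.51, SE 0.25, limma adjusted p = 7.78e-10) and Tnfrsf1b (-1.69, SE 0.33, limma adjusted p = 0.000232) were lower in heart LEC, as was the interferon regulatory factor Irf1 (-1.61, SE 0.17, limma adjusted p = 6.83e-09). Between the LEC, 2 of the 13 were lower in the heart and none was higher: the feedback inhibitors Tnfaip3 (-1.38, SE 0.14, limma adjusted p = 1.01e-08) and Nfkbia (-0.57, SE 0.09, limma adjusted p = 2.07e-05). Of all genes, 1.88% were lower and 2.67% higher there. Tnfaip3 stood at 37.6 TPM ± 10.6 in heart LEC and 96.0 ± 22.9 in diaphragm LEC, the same direction as Icam1. Against cardiomyocytes all 13 were higher in heart BEC, beside 64.1% of all genes.

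On the leukocyte side, Ptprc, which encodes CD45, had a mean of 7.34 TPM ± 3.67 in heart LEC, 8.36 ± 11.9 in diaphragm LEC and 4.01 ± 1.60 in heart BEC. Of 8 counter-receptor genes tested, Itgb1 was lower in both LEC populations than in heart BEC (-0.34 in heart LEC, limma adjusted p = 0.000306, and -0.33 in diaphragm LEC, limma adjusted p = 0.000300) and the leukocyte integrin chain Itgb2 was higher in diaphragm LEC (1.20, SE 0.34, limma adjusted p = 0.00907). Of 6 enzymes that build selectin ligands, Gcnt1 and St3gal4 were higher in both LEC populations, Gcnt1 by 0.95 (SE 0.27, limma adjusted p = 0.0125) and 1.18 (SE 0.28, limma adjusted p = 0.00149). Beside both lists, 8.94% of all genes were higher and 8.64% lower in heart LEC, and 7.54% and 9.01% in diaphragm LEC. Between heart BEC and the cardiomyocyte fraction, 3 of the 8 counter-receptor genes were lower in heart BEC (Itgb2, Itgam and Selplg, the main selectin ligand, the last by -2.33, SE 0.17, limma adjusted p = 1.01e-11) and 1, Itgb1, was higher. In that comparison 10.8% of all genes were lower and 64.1% higher in heart BEC.

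Treatment was then compared within each population, in 1 limma model per population with 3 groups and age, and for the endothelial cells also the sequencing set, as covariates. None of the 9 genes was called in any of the 12 comparisons. Few genes were called at all: 0.0261% of those tested for angII against ctrl in heart LEC, 0.0892% for angII and 0.663% for angII+VEGFC against ctrl in cardiomyocytes, and 0.0% in each of the other 9 comparisons. The comparisons of a population share their groups, angII+VEGFC against angII and against ctrl in particular. Counts at an unadjusted p under 0.05 are given below to describe which genes came nearest. The median difference of the 9 genes lay between -0.05 and 0.20 on the log2 scale across the 12 comparisons, where that of all genes lay between -0.37 and 0.28.

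**Figure D3:**
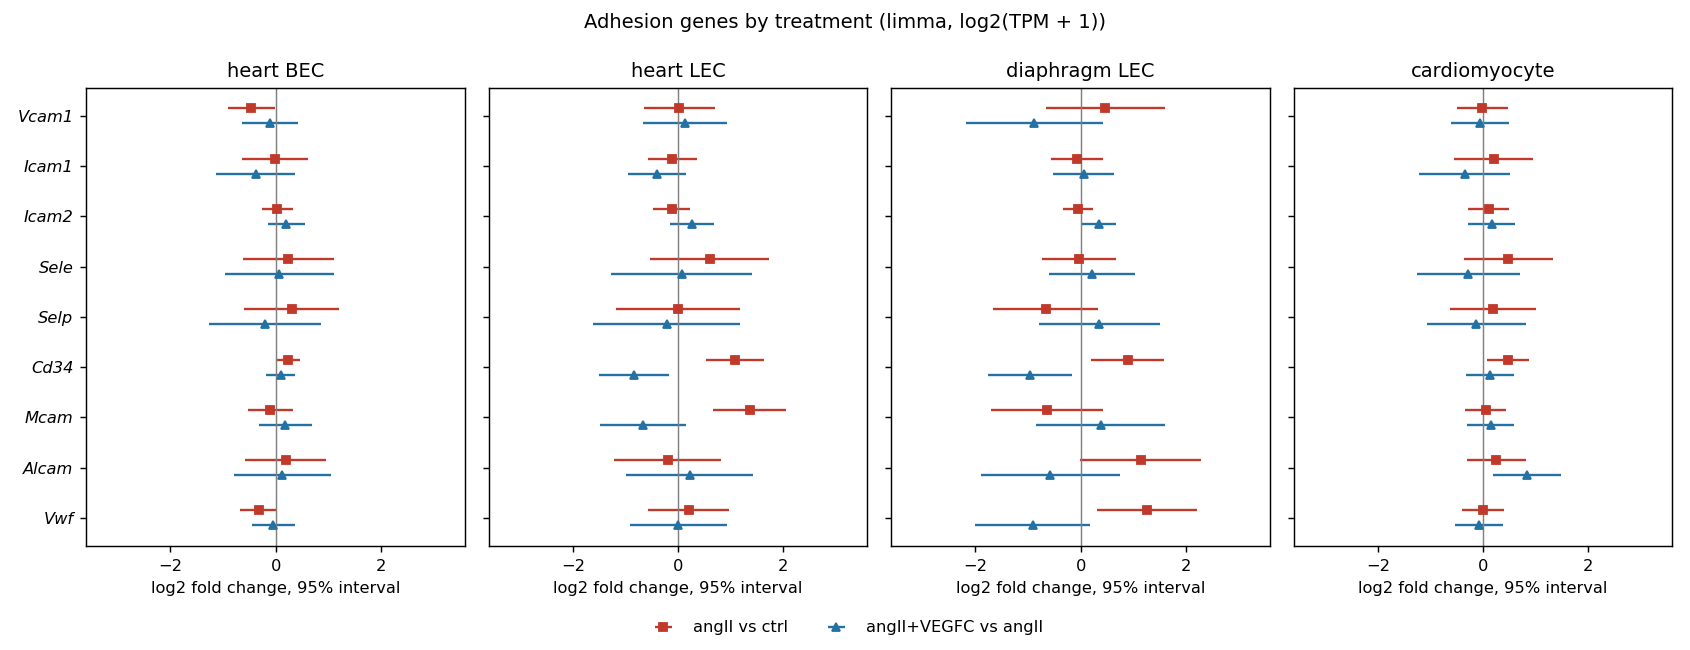
Log2 fold changes of the 9 genes tested by treatment in each population, with 95% intervals from limma on log2(TPM + 1). Cd34 and Mcam in angII heart LEC lay farthest from 0 relative to their intervals, at 1.08 and 1.36, and no value passed the adjusted threshold.

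In heart LEC, Cd34 and Mcam came nearest. Cd34 was at 106 to 142 TPM in the 4 ctrl libraries and at 161 to 438 in the 5 angII libraries, so the groups did not overlap, which held for 2.62% of all genes. The log2 difference was 1.08 (SE 0.26, 95% interval 0.52 to 1.64, limma adjusted p = 0.169). Within the sequencing sets it was 0.87 and 1.39. Mcam was at 22.8, 23.5, 43.1 and 17.9 TPM in ctrl and at 83.7, 103, 51.2, 35.0 and 86.4 in angII, where the angII library of mouse 18 lay inside the ctrl range. Its difference was 1.36 (SE 0.32, 95% interval 0.67 to 2.04, limma adjusted p = 0.169) and 1.17 and 1.51 within the sets. These 2 of 9 genes had an unadjusted p under 0.05, as did 10.9% of all genes. Of 15 alternative fits, Cd34 passed only in that without the angII library of mouse 12, which had the lowest Cd34 of its group. The difference was then 1.26, with a limma adjusted p of 0.0310. The share of all genes called in that fit was not set beside it.

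The angII+VEGFC heart LEC libraries had Cd34 at 154, 172 and 104 TPM. Their difference from angII was -0.84 (SE 0.31, limma adjusted p = 0.422). Within the first and the second set it was -0.52 and -1.20, the first with only 1 angII+VEGFC library. Cd34 was the 1 gene of 9 at an unadjusted p under 0.05 here, against 10.8% of all genes. Mcam was at 27.9, 63.5 and 38.9 TPM, with a difference of -0.67 (limma adjusted p = 0.524). Against ctrl, none of the 9 had an unadjusted p under 0.05, where 4.94% of all genes had, and Cd34 differed by 0.24.

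Markers of other cell types differed alongside in heart LEC. The blood endothelial markers, 6 genes of which 4 had an unadjusted p under 0.05 and none passed adjustment, summed to 1609 to 2542 TPM in ctrl, 2575 to 5487 in angII and 1996 to 2048 in angII+VEGFC. The cardiomyocyte markers, 5 genes, summed to 106 to 332 TPM, 137 to 809 and 126 to 265. The mural markers, 6 genes of which 2 had an unadjusted p under 0.05 for angII against ctrl and none passed adjustment, summed to 16.9 to 354 TPM (median 53.3), 84.6 to 771 (140) and 58.6 to 222 (79.0). The 5 fibroblast markers all had an unadjusted p under 0.05 but in both directions, with Col1a2, Col1a1 and Lum at positive and Dcn and Pdgfra at negative differences, and only Col1a2 passed adjustment, at 2.84 (SE 0.42, limma adjusted p = 0.0293). Their sums were 854 to 1387 TPM in ctrl (median 1309.8), 686 to 1573 in angII (833) and 928 to 1263 in angII+VEGFC (1228). The median count of genes that reached 1 TPM was 18359.5 in ctrl, 22814 in angII and 18425 in angII+VEGFC. The part of these in the Cd34 and Mcam values was not tested. Among the other adhesion genes, Esam (1.26, SE 0.27, limma adjusted p = 0.135) and Jam3 (1.49, SE 0.34, limma adjusted p = 0.168) came nearest, and none of the 24 tested was called, with 5 at an unadjusted p under 0.05.

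**Figure D4:**
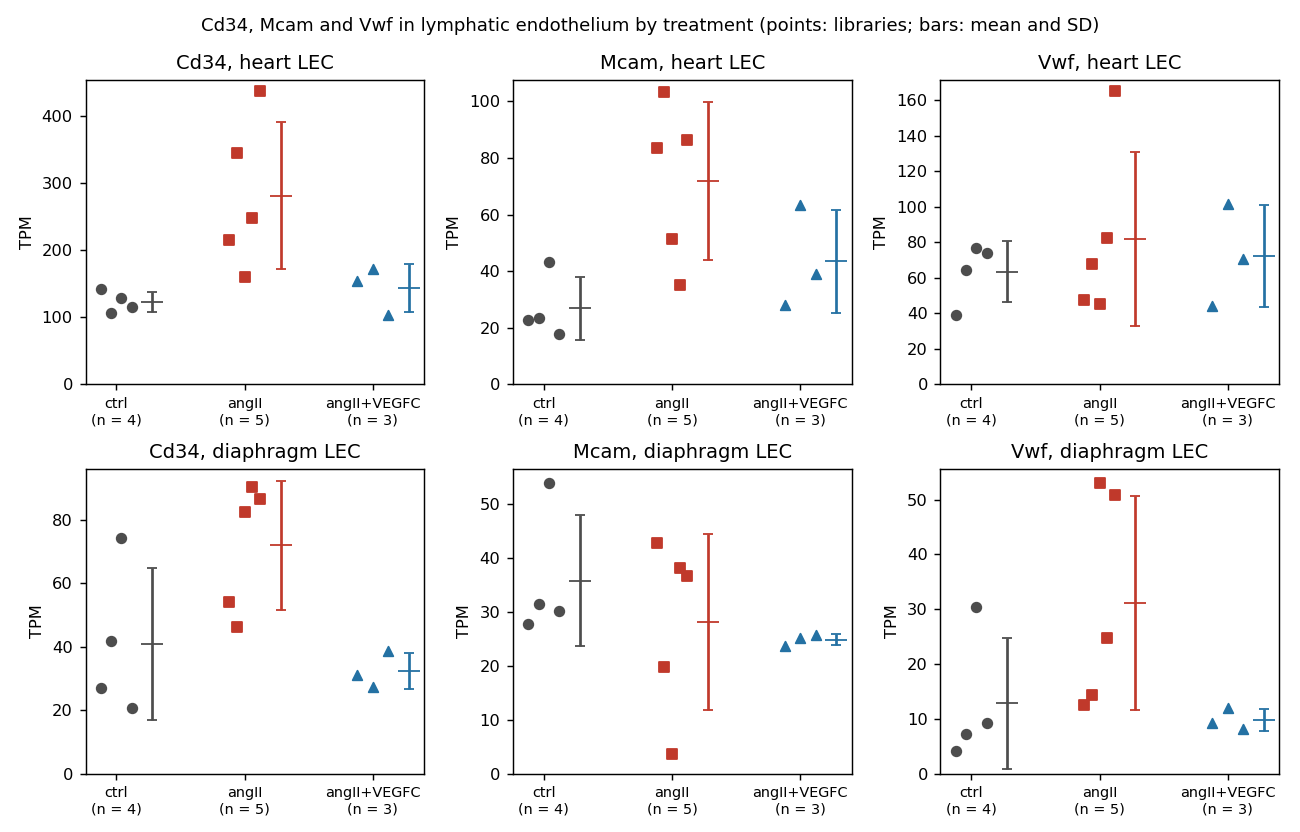
Cd34, Mcam and Vwf in heart LEC and diaphragm LEC by treatment (ctrl n = 4, angII n = 5, angII+VEGFC n = 3), in TPM on a linear axis, with 1 point per library and bars for the mean and SD. The angII heart LEC libraries of Cd34 ran from 161 to 438 TPM above a ctrl range of 106 to 142, and those of Mcam overlapped ctrl in the library at 35.0 TPM.

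In diaphragm LEC, Vwf and Cd34 had an unadjusted p under 0.05 for angII against ctrl, as had 15.3% of all genes. Vwf was at 4.19, 7.30, 30.5 and 9.34 TPM in ctrl, 12.6, 14.4, 53.0, 24.8 and 50.9 in angII and 9.33, 12.0 and 8.16 in angII+VEGFC. The ctrl library of mouse 9 lay above 3 of the angII libraries. The difference of angII from ctrl was 1.27 (SE 0.44, limma adjusted p = 0.297), and 1.40 and 1.10 within the sets. Cd34 differed by 0.90 (SE 0.32, limma adjusted p = 0.299), and by 0.69 and 1.11 within the sets. Mcam was at a median of 30.8 TPM in ctrl (27.7 to 53.9) and of 36.5 in angII (3.59 to 42.8), with a difference of -0.63 (95% interval -1.70 to 0.44, limma adjusted p = 0.526).

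Between angII+VEGFC and angII in diaphragm LEC, 3 of the 9 genes (Icam2, Cd34 and Vwf) did not overlap, against 8.69% of all genes. Icam2 was at 332, 273, 334, 326 and 288 TPM in angII and 404, 416 and 344 in angII+VEGFC, a difference of 0.35 (SE 0.15, limma adjusted p = 0.567). Cd34 differed by -0.96 (SE 0.37, limma adjusted p = 0.567) and Vwf by -0.91 (SE 0.51, limma adjusted p = 0.591). Icam2 and Cd34, 2 of 9, had an unadjusted p under 0.05, against 8.78% of all genes. Between angII+VEGFC and ctrl, Mcam alone of the 9 did not overlap, at 23.7 to 25.7 TPM against 27.7 to 53.9, and 4.34% of all genes did not overlap. None of the 9 had an unadjusted p under 0.05 in that comparison, against 1.32% of all genes. Leukocyte markers summed to 18.6 to 190 TPM in ctrl, 56.6 to 261 in angII and 10.1 to 23.9 in angII+VEGFC. Platelet markers summed to 26.4 to 76.3 TPM (median 43.4), 27.9 to 129 (103) and 14.8 to 37.0 (16.0), and cardiomyocyte markers to 2.54 to 243 TPM (18.0), 11.8 to 310 (119) and at most 11.3 (8.24). The count of genes that reached 1 TPM had medians of 16861.5, 20742 and 16427. Their part in these values was not tested.

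In heart BEC, Vcam1 and Cd34 were the 2 of 9 at an unadjusted p under 0.05 for angII against ctrl, where 5.4% of all genes were. Vcam1 differed by -0.46 (SE 0.21, limma adjusted p = 0.914) and Cd34 by 0.24 (SE 0.11, limma adjusted p = 0.914). The same genes had an unadjusted p under 0.05 for angII+VEGFC against ctrl, where 5.51% of all genes had. Cd34 was at 788, 721, 648 and 821 TPM in ctrl and 935, 981 and 904 in angII+VEGFC, without overlap, as for 4.93% of all genes. Its difference was 0.34 (SE 0.12, limma adjusted p = 0.857), and that of Vcam1 was -0.57 (SE 0.24, limma adjusted p = 0.878). For angII+VEGFC against angII none of the 9 had an unadjusted p under 0.05, against 2.59% of all genes. The groups overlapped for Sele, which was at 113, 143, 47.3 and 64.4 TPM in ctrl and at 115, 119, 72.5, 94.9 and 72.2 in angII.

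In cardiomyocytes, Cd34 had an unadjusted p under 0.05 for angII against ctrl, 1 of 9 genes against 9.85% of all genes. It was at 234, 201, 200 and 230 TPM in ctrl and 390, 234, 274, 349 and 265 in angII, with a difference of 0.47 (SE 0.18, limma adjusted p = 0.400). For angII+VEGFC against ctrl, Cd34 and Alcam were below 0.05, against 12.9% of all genes, and Icam2, Cd34 and Alcam did not overlap, against 14.0% of all genes. Alcam was at 2.45, 1.56, 1.65 and 1.98 TPM in ctrl and 6.31, 3.21 and 6.24 in angII+VEGFC, with a difference of 1.07 (SE 0.30, limma adjusted p = 0.133). Cd34 differed by 0.61 (SE 0.21, limma adjusted p = 0.223). Against angII, Alcam was the 1 of 9 below 0.05, with 2.41% of all genes. Of 13 alternative fits, Cd34 passed against ctrl only in the following. Without the angII+VEGFC library of mouse 8, which had the lowest Cd34 of its group, the difference was 0.75 (limma adjusted p = 0.0498). With the count of genes that reached 1 TPM as a covariate it was 0.78 (limma adjusted p = 0.0300). The share of all genes called in these fits was not set beside them. Leukocyte markers in this fraction summed to 418 to 557 TPM in ctrl, 588 to 1262 in angII and 625 to 1341 in angII+VEGFC, and fibroblast markers to 2116 to 3068, 3060 to 4489 and 3052 to 4672. Their part in the Cd34 values was not tested.

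Whether a treatment difference itself differed between endothelial populations was tested by interaction terms in the model of 36 libraries, 9 terms in all. None of the 9 genes was called in any of them. Among all genes, 0.00611% were called for angII against ctrl between heart LEC and diaphragm LEC, and 0.0% in each of the other 8. At an unadjusted p under 0.05 there were 2, 1 and 1 of the 9 for angII against ctrl (heart LEC minus heart BEC, diaphragm LEC minus heart BEC and heart LEC minus diaphragm LEC), where 7.19%, 11.0% and 9.7% of all genes were. For angII+VEGFC against angII there were 1, 3 and 1, with 6.43%, 7.0% and 4.88% of all genes, and for angII+VEGFC against ctrl 0 in each, with 3.73%, 1.41% and 5.26%. The difference with the smallest p was that of Mcam, whose difference of angII from ctrl was higher in heart LEC than in diaphragm LEC by 1.97 on the log2 scale (SE 0.59, unadjusted p = 0.00208 and adjusted p = 0.297 in limma). The lists of NF-kB, Weibel-Palade, counter-receptor and selectin-ligand genes likewise had 0 genes called in the 12 treatment comparisons and the 9 interactions. At an unadjusted p under 0.05, the NF-kB list had at most 2 of 13 genes in any of these and the Weibel-Palade list at most 3 of 8. The counter-receptors had at most 2 and the selectin-ligand enzymes at most 1. The share of all genes ran from 1.32% to 15.3% over these comparisons. The maxima were not set beside the share of their own comparison.

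Libraries of the same mouse shared a pattern for Icam1 that was noticed after its values were seen. In ctrl, the lowest Icam1 value of heart LEC (367 TPM), heart BEC (455) and cardiomyocytes (71.5) came from mouse 9 each time. In angII the lowest 3 values came from mouse 12, at 271, 410 and 79.5 TPM, and in angII+VEGFC from mouse 8, at 216, 260 and 39.2 TPM. The gap to the next mouse was small in ctrl heart LEC, where mouse 5 stood at 375 TPM, and wide in angII+VEGFC heart BEC, where the others stood at 720 and 628. Of 14524 genes that reached 1 TPM in 3 or more libraries of each heart population, 37 (0.255%) had the lowest library from 1 mouse in all 3 treatment groups, 3.12% in 2 groups, 22.7% in 1 and 73.9% in none.

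Icam2 and Selp had such a shared lowest mouse in 2 of the 3 groups, and Sele and Cd34 in 1. For Icam2 these were mouse 1 in ctrl and mouse 8 in angII+VEGFC, and for Selp mouse 12 in angII and mouse 8. For Sele and Cd34 it was mouse 8. Selp and Sele of mouse 8 were at 6.08 and 3.86 TPM in heart LEC, 30.1 and 47.4 in heart BEC and 4.44 and 6.46 in cardiomyocytes, the lowest of their group each time. In diaphragm LEC of mouse 8 Icam1 was at 836 TPM, the highest of its group, and in that of mouse 9 at 491, the lowest. Of the other listed genes, 1 had such a shared lowest mouse in all 3 groups, the cardiomyocyte marker Actc1, in mice 1, 12 and 8. Relb (mice 9 and 8), Nfkbia (mice 12 and 8) and Irf1 (mice 12 and 8) of the NF-kB list had one in 2 groups, as had 3.12% of all genes. None of the 13 NF-kB genes had it in all 3 groups. Their summed level was lowest in mice 12 and 8 in each heart population, and in ctrl it was lowest in mouse 9 in heart BEC (2834 TPM) but in mouse 5 in heart LEC and cardiomyocytes, at 2056 and 759 TPM, where mouse 9 stood at 2056 and 764. The endothelial libraries of mice 9 and 12 belonged to the first sequencing set and those of mouse 8 to the second. Their cardiomyocyte libraries were all in the further set. That of mouse 8 had 19306 genes at 1 TPM or more, where the other cardiomyocyte libraries had 13020 to 15816. The part of this in its low values was not tested. Libraries of a heart share the animal and the digest, which cannot be told apart here.

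**Figure D5:**
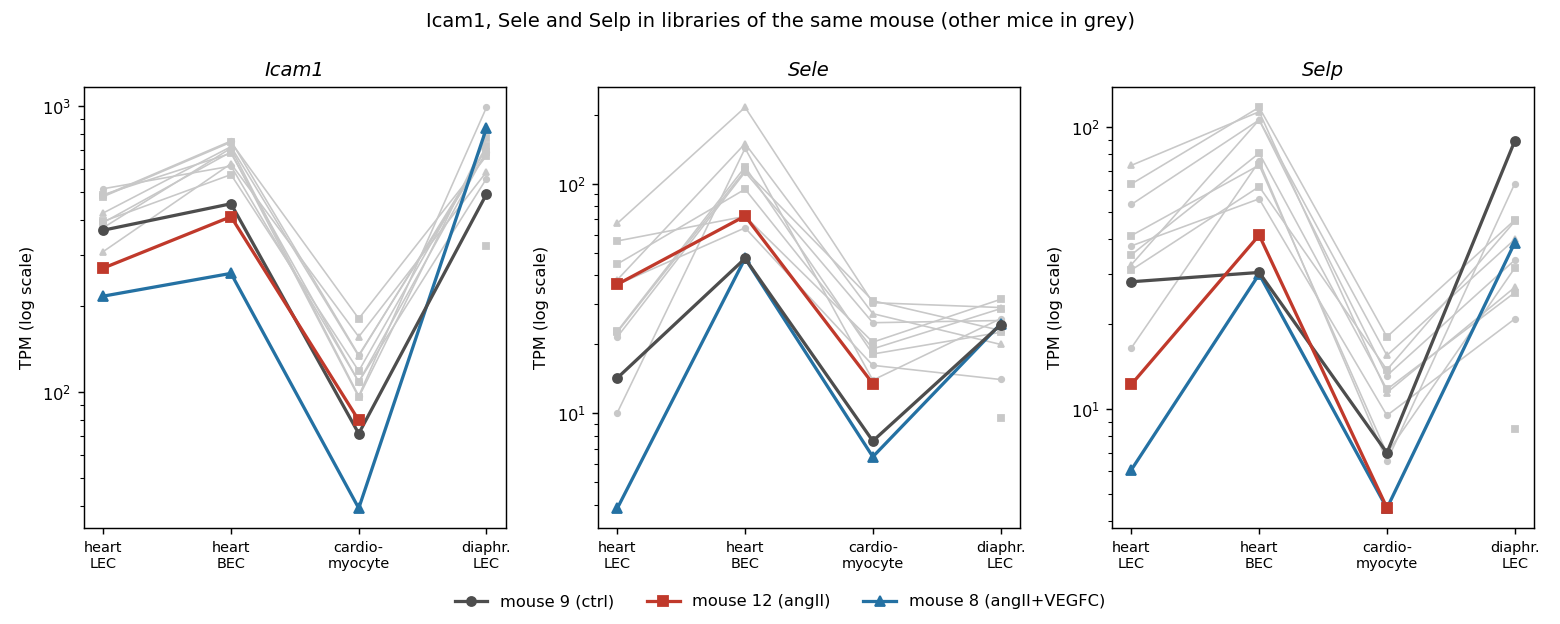
Icam1, Sele and Selp in libraries of the same mouse, in TPM on a log axis, joined across populations, with mouse 9 (ctrl), mouse 12 (angII) and mouse 8 (angII+VEGFC) in colour and the other mice in grey. Icam1 of these 3 was the lowest of its group in each heart population, down to 216, 260 and 39.2 TPM in mouse 8, whose diaphragm LEC value was 836.

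Likeness was described by the Pearson correlation of log2(TPM + 1) over the 36 endothelial libraries, taking the 2 most similar genes for each of the 9. The points share 3 populations, so that any pair of genes that differs between them is correlated. Vcam1 was most like Vwf (r = 0.956) and Flt1 (0.949), and Vwf most like Vcam1 and Car8 (0.955). Cd34 was most like Fabp4 (0.985) and Jam2 (0.984), and Mcam most like B3gnt3 (0.947) and Vwa1 (0.944). Icam2 was most like Eng (0.909) and Gusb (0.904). The values were lower for Icam1, with Rnd1 (0.855) and Tmem173 (0.8286), for Sele, with Clic4 (0.850) and Pakap (0.841), and for Selp, with Sele (0.764) and Litaf (0.761). The genes most like Alcam were the predicted genes Gm38137 (0.846) and Gm13479 (0.842).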

How the data were processed

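RNA-seq libraries of 4 cell populations of Prox1-eGFP mice were analysed. According to the labels and the methods, the authors made cDNA with an ultra-low-input Smart-Seq kit and libraries with Nextera XT, aligned to GRCm38 with STAR 2.5.3a and quantified Ensembl genes with Salmon 0.12.0. The authors deposited 1 matrix of TPM values, without counts, so depth and counting error are unknown, and the authors' count model could not be repeated.

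Group, mouse, age and sequencing set were taken from the labels. Genes that reached 1 TPM in 3 or more of the libraries compared were fitted as log2(TPM + 1) with limma 3.58.1 (eBayes with trend) in R 4.3.3, with age and, for endothelial cells, sequencing set as covariates, and p-values were adjusted over all genes tested after Benjamini and Hochberg, at a threshold of 0.05. The limma step was tested on simulated data with changes larger than the treatment differences given here. That test does not speak to its power at those smaller sizes. Other steps used Python 3.11.15, numpy 2.4.6, pandas 2.3.3 and matplotlib 3.10.9. Coordinates came from the GRCm38 annotation and promoters from RefSeq.

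The labels give the same animal number to libraries of different populations, so the mouse pairs them. Deviations from the group means were correlated across genes between libraries of 1 mouse. Medians were 0.115 for heart LEC and heart BEC (0.0343 to 0.285, 12 mice) and 0.0543 for heart LEC and diaphragm LEC (-0.0951 to 0.181, 11 mice). The median was 0.12 for diaphragm LEC and heart BEC. With cardiomyocytes it was -0.00988 for heart LEC (-0.169 to 0.198), 0.129 for heart BEC and 0.0368 for diaphragm LEC. Pairs from the same heart thus did not all have higher medians than pairs from different organs. The mouse as a block was an alternative, as were a pseudocount of 0.1, no filter, no covariates, quantile normalization, the count of genes that reached 1 TPM as a covariate, only the groups compared, only ctrl libraries and each library left out.

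The adhesion genes and the other lists were chosen with earlier results of these data known. All 10 adhesion genes were named, and of each other list at most 3 called genes per comparison by size of the difference, or the 2 with the smallest p where none was called, with values for a part of these, and for each adhesion gene the 2 most correlated genes. Of 26 listed other adhesion genes, 25 were matched. The pattern of Icam1 by mouse and the libraries singled out were chosen after their values were seen.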

Additional observations from a re-analysis of the deposited data

Results flagged for a closer look

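Of 73 groups of 4 or 5 libraries, taken gene by gene, 7 held a library that stood apart from the others by Dixon's criterion. The cut-offs assume normally distributed values, which TPM need not be, and the groups share libraries. The share over all genes was not computed, so no rate given by chance can be set beside these. Vcam1 of ctrl diaphragm LEC was 65.3 TPM in mouse 9, against 9.38 to 12.4 in the other 3 mice, with a gap of 0.945 of the range. Mcam of the same library was 53.9 TPM (0.859 of the range). Icam1 of angII diaphragm LEC was 325 TPM in mouse 4, the lowest (0.772), and the heart libraries of this mouse were not among those analysed. Sele of ctrl diaphragm LEC was 14.0 TPM in mouse 11, the lowest (0.870). Icam2 of angII heart LEC was 326 TPM in mouse 3, the lowest (0.793). Alcam of ctrl heart BEC was 6.39 TPM in mouse 1, the highest (0.886), and Vcam1 of ctrl cardiomyocytes was 83.7 TPM in the same mouse, the highest (0.843).

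For Alcam, means without covariates lay in opposite directions in some populations, among 81 pairs checked. Every angII+VEGFC library lay on 1 side of the mean of the comparison group in heart LEC or diaphragm LEC and on the other side in cardiomyocytes. For angII+VEGFC against angII the log2 difference in LEC minus that in cardiomyocytes was -0.968 for heart LEC and -1.54 for diaphragm LEC, and for angII+VEGFC against ctrl it was -1.27 for heart LEC. These differences were not tested, and the populations were sequenced in different sets. In the limma models, with age and sequencing set as covariates in LEC and age alone in cardiomyocytes, Alcam in heart LEC had the sign it had in cardiomyocytes, at 0.22 in heart LEC against 0.83 for angII+VEGFC against angII and 0.02 against 1.07 for angII+VEGFC against ctrl. Within the first and the second sequencing set, the first with 1 angII+VEGFC library, the heart LEC differences were -0.17 and 0.01 against angII, and -0.89 and 0.55 against ctrl. In diaphragm LEC the difference of angII+VEGFC from angII was -0.57 in the model and -1.30 and 0.17 within the same sets.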

How the results depend on the processing

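The 27 calls between populations kept their direction in all 1092 alternatives. With ctrl libraries only, 5 genes in place of 8 were called for heart LEC against heart BEC (lost: Icam1, Icam2 and Selp) and 3 in place of 5 for heart LEC against diaphragm LEC (lost: Vcam1 and Icam1), a fit with fewer samples. With the mouse as a replicate block, fixed or random, 9 genes were called for heart LEC against heart BEC and 7 for diaphragm LEC against heart BEC, and the block changed no other call than those of Alcam and Selp given with their values. The share of all genes called in the fits with ctrl libraries only or with the block was not set beside these counts. Selp in heart LEC against heart BEC was also lost with quantile normalization (limma adjusted p = 0.0503). Alcam, heart BEC against cardiomyocytes, turned to -0.48 with quantile normalization and to -0.58 with the number of genes as a covariate. With each library left out in turn, 0 to 1 genes were called for angII against ctrl in heart LEC and 0 to 1 for angII+VEGFC against ctrl in cardiomyocytes, where the number of genes as a covariate also gave 1. Without a single library, Alcam in heart LEC against heart BEC passed in 7 fits and Selp in diaphragm LEC against heart BEC in 8.

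Of 108 uncalled treatment results, 69 changed sign under some alternative. Quantile normalization moved the median of all genes by -0.25 for angII against ctrl in heart LEC, by 0.39 for angII+VEGFC against angII there and by -0.47 for heart BEC against cardiomyocytes, while Cd34 and Mcam in angII heart LEC stayed at 1.08 and 1.38. The cause of these changes was not tested. TPM without counts limits what can be said of Madcam1 and Alcam. The authors' surrogate variables were not run, because their number is not given in the sources used here.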
